A study of Mus musculus with 12 samples.

Results

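The response of the liver to a mammary tumour growing elsewhere in the body was described in wild-type (WT) mice, by comparing 3 livers from mice that carried a tumour (WT_tumor) with 3 livers from mice that did not (WT_no_tumor). These are 6 of the 12 libraries of the series. The genes described are those with a normalized value of at least 10 in at least 3 of the 6 libraries, 16127 of the 22557 genes in the deposited table. The other 6 libraries came from mice with a knockout (KO) of Mtdh, the gene of metadherin, 3 without a tumour (KO_no_tumor) and 3 with a tumour (KO_tumor). All mice were female and matched for age, and both tumour groups carried Py8119, a mouse mammary tumour cell line, so the tumour effect is that of 1 line. None of the sources used here gives the age or strain of the mice, the site or size of the tumour, or the time of collection. Each library was made from ribosome-depleted RNA of powdered frozen liver, all cells of the organ included, and each came from a different mouse.

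The liver answers signals from distant tissue largely through secreted proteins. In the acute phase response, cytokines of the interleukin-6 (IL-6) family bind receptors that share the subunit gp130 (Il6st), activate the transcription factor STAT3, and raise plasma proteins made by hepatocytes, while SOCS3 feeds back on the receptor. Fatty acid breakdown in hepatocytes is under the nuclear receptor PPARα, which binds DNA together with RXRα, and many enzymes of steroid and drug metabolism follow the sex-specific release of growth hormone.

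The 6 WT libraries had estimated depths of 27600000 to 41400000 reads, taken from the value of 1 read in each library. Mtdh did not differ detectably between the WT groups (log2 fold change 0.01 ± 0.35, SE). Hepatocyte markers were high in every library, and albumin (Alb) took 7.16% to 7.55% of the signal without a tumour and 9.82% to 11.2% with a tumour. Mitochondrially encoded genes took 7.50% to 7.70% without a tumour and 6.45%, 3.49% and 4.75% in WT_tumor replicates 1 to 3. The part of these shares in the gene results was not tested. Markers of pancreas, gut and muscle were at low values or not analysed here, and Adipoq, the marker of fat cells, was at 0 in all 6 libraries. Of the KO libraries, which enter the fit through the shared estimate of spread, KO_tumor replicate 1 was the shallowest of the series (12700000 reads) and correlated least with the others (mean 0.828, across genes, against 0.890 to 0.930), and KO_no_tumor replicate 3 had the lowest share of signal in protein-coding genes (83.7%).

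In livers of tumour-bearing WT mice, 75 genes were higher and 44 lower than in tumour-free WT livers by limma on log2(value + 1), with Benjamini-Hochberg adjustment over all 16127 genes and a threshold of 0.05. That is 0.738% of the genes tested, 0.465% higher and 0.273% lower. These shares are to be set beside every count of called list members below. A gene can be on several lists, as C8a and Fgl1 are, and is counted in each. With values rescaled to the same total per library the counts were 79 higher and 25 lower. The higher genes included 14 of the acute phase list, 5 of the IL-6 and STAT3 list, 4 of the endoplasmic reticulum (ER) and 4 of stellate cells and matrix. The lower genes included 9 targets of PPARα and 7 genes whose liver level depends on sex. Of the 119 genes, 116 were protein-coding and 3 were long non-coding RNAs. Values of the groups did not overlap for any of the 119, against 18% of all genes tested. The calls rest on the same values, so this adds no support to them. The called changes were at least 0.88 on the log2 scale, with a median of 1.78 for higher and −1.85 for lower genes, and 30 higher and 20 lower genes lay beyond 2. Across all genes tested 8093 log2 fold changes were positive and 8034 negative, with a median of 0.00. Every fold change was taken on log2(value + 1), so that changes of genes at low values come out too small.

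**Figure D1:**
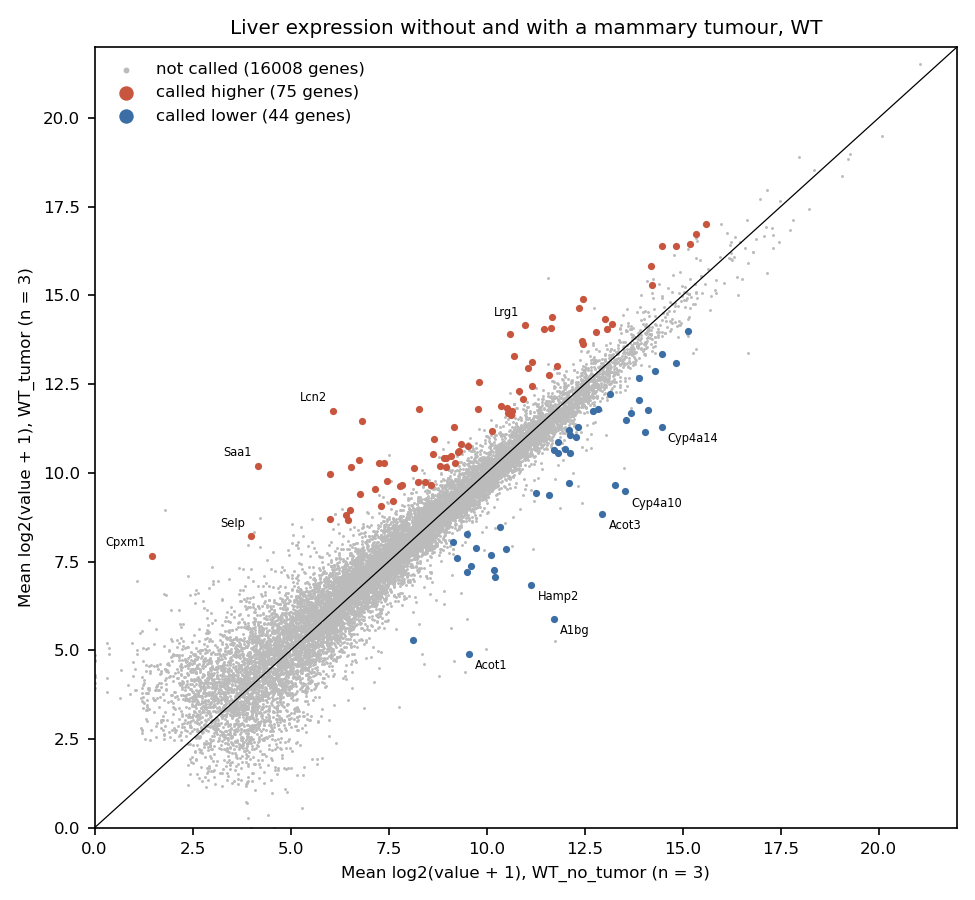
Mean log2(value + 1) of each gene tested in 3 WT_no_tumor libraries (horizontal axis) and 3 WT_tumor libraries (vertical axis), with the diagonal as equality. The 75 genes called higher (red) and 44 called lower (blue) lie away from the diagonal at medium and high levels, while genes at low levels scatter widely without being called.

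The counts depended on single libraries. Of the 119 calls, 17 remained without WT_no_tumor replicate 1, 13 without WT_no_tumor replicate 2, 54 without WT_no_tumor replicate 3, 14 without WT_tumor replicate 1, 78 without WT_tumor replicate 2 and 10 without WT_tumor replicate 3. In these 6 fits every one of the 119 genes kept the sign of its change, and 15 of them had a fold change, taken back from the log2 scale, that moved by over 1.5 times in at least 1 of the fits, A1bg the most (log2 fold changes from −7.21 to −4.23). The 10 genes called in all 6 fits were Armcx4, Clca3a1, Itih3, Steap4, Cyp2c40, Cyp2c69, Cyp17a1, Cyp4a10, Acot1 and Acot3. Of the 119 genes, 32 were called in 0 of the 6 fits. Without KO_tumor replicate 1 the counts were 134 higher and 80 lower, and without both KO libraries that stood apart 139 and 72, in each case with all 119 genes among them. With the 6 WT libraries fitted alone 25 of the 119 calls ended, and with values rescaled to the same total 24.

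The largest increases were in genes that were at low values without a tumour. Saa1, a serum amyloid of the acute phase, was at 11.3, 12.6 and 34.1 in WT_no_tumor livers and at 3981, 359 and 1147 in WT_tumor livers (log2 fold change 6.03 ± 1.03, SE; limma adjusted p = 0.0195). Lcn2, which binds bacterial iron carriers and is made by neutrophils as well as hepatocytes, was at 48.5, 29.4 and 206 without and at 7220, 1252 and 4572 with a tumour (5.67 ± 0.99, limma adjusted p = 0.0208). For both genes WT_tumor replicate 2 was the lowest of the tumour-bearing livers, yet above every tumour-free liver. Cpxm1, a secreted member of the carboxypeptidase family, was at 0, 2.10 and 5.68 without and at 233, 184 and 193 with a tumour (6.21 ± 0.98, limma adjusted p = 0.0134), with little spread among the 3 tumour-bearing mice. Selp, the P-selectin that holds leukocytes at the vessel wall, went from 26.0, 6.31 and 19.9 to 317, 212 and 395 (4.22 ± 0.78, limma adjusted p = 0.0266), and the neutrophil-attracting chemokine Cxcl1 from 47.4, 149 and 36.0 to 1210, 938 and 891 (3.96 ± 0.80, limma adjusted p = 0.0397). With each WT library left out in turn, the calls of Saa1, Lcn2 and Cpxm1 each remained in 2 of 6 fits. That of Selp remained in 1 and that of Cxcl1 in 0. The call of Cxcl1 also ended with replicate number as a block (limma adjusted p = 0.0566). Saa2, the neighbour of Saa1, was at 2134, 155 and 229 with a tumour and did not pass (4.50 ± 1.01, limma adjusted p = 0.0631). Transcripts of Saa1 and Saa2 share 31.5% and 30.0% of their 50-base words, so their reads may be split between them.

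Other large increases were in genes outside the classical acute phase. Armcx4, of a family of armadillo repeat proteins on the X chromosome, was at 124, 65.2 and 95.6 without and at 1306, 640 and 1799 with a tumour (3.63 ± 0.42, limma adjusted p = 0.00192). Clca3a1, of the family of chloride channel accessory proteins, was at 65.5, 170 and 110 without and at 1326, 1541 and 1125 with a tumour (3.61 ± 0.44, limma adjusted p = 0.00288), although 24.1% of its 50-base words occur in other genes, mostly Clca3a2. These genes were among those called with any WT library left out. Atp6v0d2, a subunit of the vacuolar proton pump, rose from 389, 291 and 256 to 4664, 1526 and 6260 (3.52 ± 0.64), and Isyna1, the enzyme that makes inositol phosphate from glucose phosphate, from 220, 93.6 and 170 to 2350, 677 and 1214 (3.03 ± 0.54). Igfbp1, a liver protein that binds insulin-like growth factors, rose from 919, 1200 and 3339 to 38387, 6260 and 15710 (3.33 ± 0.63, limma adjusted p = 0.0291), with a wide spread among the tumour-bearing mice.

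**Figure D2:**
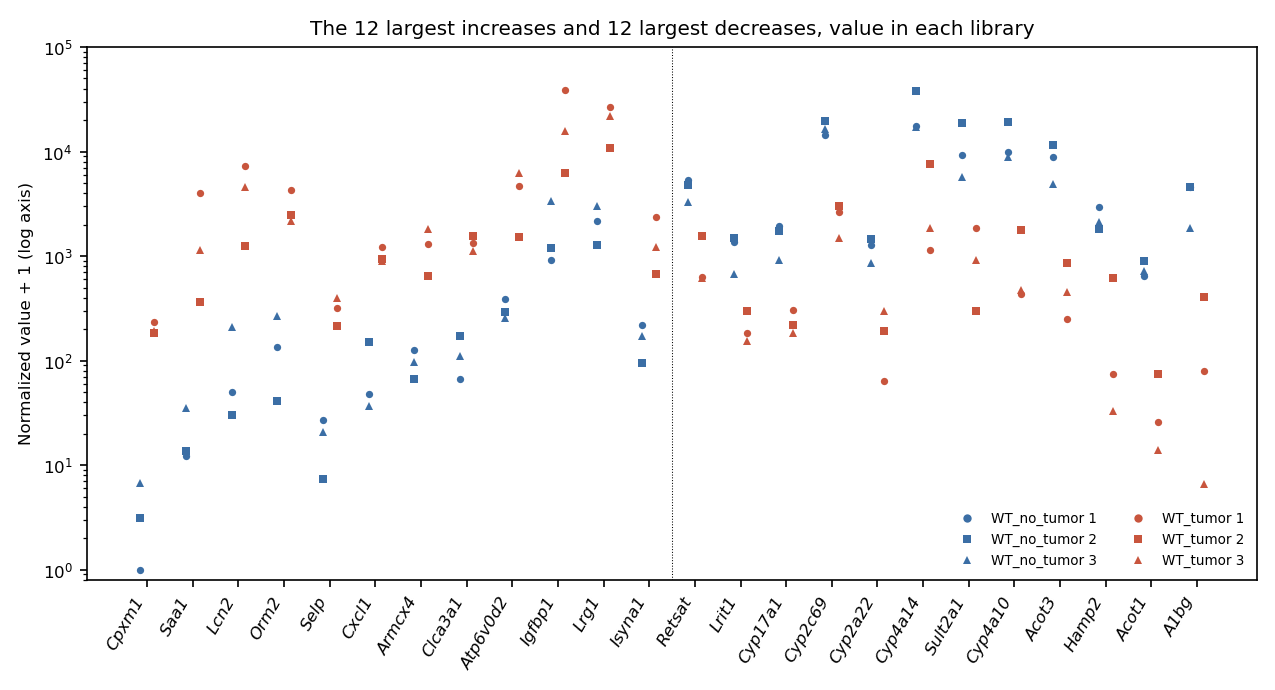
Normalized value + 1 on a log axis in each of the 6 WT libraries for the 12 largest increases (left of the dotted line) and 12 largest decreases (right), blue without and red with a tumour, with the marker shape giving the replicate. Genes with overlapping groups were left out by the selection. WT_tumor replicate 2 (red squares) is often the tumour-bearing liver nearest to the tumour-free ones.

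The acute phase list, which holds plasma proteins but also the surface protein Steap4, made the largest group. Of 34 members tested, 14 rose and 0 fell, 31 of 34 fold changes were positive, and the median was 1.41 against 0.00 over all genes. Values did not overlap, with the tumour-bearing livers higher, for 24 of the 34, against 9.75% of all genes tested. Steap4, a metalloreductase of the cell surface, was at 2256, 2498 and 2113 without and at 10144, 8077 and 8682 with a tumour (1.97 ± 0.22, limma adjusted p = 0.00192). Itih3, a heavy chain of the inter-alpha-trypsin inhibitors, was at 5654, 4767 and 6738 without and at 35801, 23340 and 34092 with a tumour (2.43 ± 0.28, limma adjusted p = 0.00192). WT_tumor replicate 2 was the lowest tumour-bearing liver for both, and by little for Steap4. Lrg1, a leucine-rich plasma glycoprotein, went from 2177, 1271 and 3016 to 26497, 10760 and 22005 (3.18 ± 0.44, limma adjusted p = 0.00639). With each WT library left out in turn, its call remained in 5 of 6 fits and ended without WT_tumor replicate 3 (limma adjusted p = 0.0609). Apcs, the serum amyloid P component, went from 899, 759 and 1047 to 8458, 2994 and 8510 (2.74 ± 0.41), and the protease inhibitor Serpina3n from 3068, 2743 and 2618 to 25018, 8386 and 23205 (2.60 ± 0.43). Of the same 6 fits the call of Apcs remained in 2 and that of Serpina3n in 1. In Lrg1, Apcs and Serpina3n WT_tumor replicate 2 was the lowest of the tumour-bearing livers. The orosomucoids lie side by side on chromosome 4 and share 20.4% (Orm1) and 22.7% (Orm2) of their 50-base words. Orm2 rose from 133, 39.9 and 265 to 4266, 2474 and 2166 (4.65 ± 0.74), and Orm1 from 2612, 1107 and 3374 to 9188, 8177 and 6720 (1.90 ± 0.39). Their calls remained in 2 (Orm2) and 1 (Orm1) of the 6 fits. Haptoglobin (Hp), which binds free haemoglobin, was at 29884, 29371 and 18738 with a tumour and 6001 to 8292 without, and did not pass in this fit (1.90 ± 0.48, limma adjusted p = 0.113). C-reactive protein (Crp), a main acute phase protein in humans, did not pass (−0.18 ± 0.24, limma adjusted p = 0.947).

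The 3 genes of fibrinogen, the clotting protein that also rises in inflammation, lie side by side on chromosome 3 (82915031 to 82957170, mm39), and all 3 rose. Fga was at 28551, 25886 and 33605 without and at 79418, 92088 and 87180 with a tumour (1.56 ± 0.31, limma adjusted p = 0.0355). Fgb went from 39348, 40229 and 44077 to 114690, 96386 and 116089 (1.40 ± 0.28), and Fgg from 44682, 45385 and 59955 to 138967, 123377 and 133008 (1.41 ± 0.28), although the call of Fgg ended with the 6 WT libraries fitted alone (limma adjusted p = 0.0525). With replicate number as a block the calls of Fga, Fgb and Fgg ended (limma adjusted p = 0.0609, 0.0586 and 0.0691). With each WT library left out in turn, that of Fga remained in 0 of 6 fits and those of Fgb and Fgg in 1. Within each group the 3 mice lay close together. Of 35 genes of coagulation and fibrinolysis tested, 6 rose and 0 fell, against 0.465% and 0.273% of all genes tested. The median was 0.57, and 17 had tumour-bearing livers above all tumour-free livers, against 9.75% of all genes tested. The other 3 that rose were Fgl1, a fibrinogen-like protein secreted by hepatocytes (5193, 4954 and 5725 without, 24197, 27907 and 24835 with a tumour; 2.28 ± 0.34), and a pair of inhibitors of clot breakdown, Serpinf2 (1.30 ± 0.24) and Cpb2 (1.15 ± 0.19). Serpins had 2 of 33 members higher, Serpina3n and Serpinf2, with a median of 0.83. Serpina1e, a member of the antitrypsin family, was at 57000, 26069 and 64085 with a tumour and 2891, 6344 and 1558 without, and did not pass (3.90 ± 1.05, limma adjusted p = 0.146).

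Complement genes had 32 of 36 positive fold changes and a median of 0.53. In this list 1 member was higher and 0 lower, against 0.465% and 0.273% of all genes tested. That member was C8a, a chain of the pore-forming complex, at 2411, 4198 and 3285 without and 21703, 13921 and 17364 with a tumour (2.43 ± 0.45, limma adjusted p = 0.0262). Hc, the gene of component C5, which was outside the list, rose from 20519, 17304 and 19722 to 43853, 33385 and 44720 (1.07 ± 0.22, limma adjusted p = 0.0425), a call that ended with the 6 WT libraries fitted alone (limma adjusted p = 0.0681). The other pore-forming components C8b (1.41 ± 0.35), C6 (1.21 ± 0.32) and C9 (0.98 ± 0.28), and C4b (1.34 ± 0.32), did not pass, with limma adjusted p from 0.0838 to 0.172, while their groups did not overlap. Component C3, on which the complement pathways meet, was at 0.73 ± 0.37.

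Genes of cytokine signalling were called too. Of 25 members of the IL-6 and STAT3 list, 5 rose and 1 fell, against 0.465% and 0.273% of all genes tested. Of the 25, 19 were positive, and the median was 0.57. It was 0.28 without WT_tumor replicate 1 and 0.87 without WT_tumor replicate 2. At the level of receptors, Osmr, which pairs with gp130 to bind oncostatin M, rose from 168, 256 and 124 to 1011, 780 and 839 (2.31 ± 0.33, limma adjusted p = 0.00971). Il6st, gp130 itself, rose from 10271, 8485 and 9682 to 19391, 16105 and 20631 (0.98 ± 0.17, limma adjusted p = 0.0214), a call that ended with the 6 WT libraries fitted alone (limma adjusted p = 0.0613). Il4ra, a receptor chain of IL-4 and not of the IL-6 family, rose from 646, 533 and 685 to 1800, 1199 and 1656 (1.31 ± 0.23). Stat3 rose from 2280, 1569 and 2012 to 5163, 3770 and 4210 (1.17 ± 0.21, limma adjusted p = 0.0233), and its feedback inhibitor Socs3 from 75.6, 51.5 and 63.4 to 364, 484 and 394 (2.69 ± 0.39, limma adjusted p = 0.00982). In these 5 genes the groups did not overlap, as in every called gene. Of the ligands, Il6 was at 28.1 in WT_tumor replicate 1, at 1.89 in WT_no_tumor replicate 3 and at 0 in the other 4 libraries, and so was not tested, and Il1b ran from 5.64 to 101 without and from 22.3 to 168 with a tumour (1.04 ± 0.94). The inhibitor of growth hormone signalling Cish fell from 633, 973 and 601 to 277, 294 and 358 (−1.22 ± 0.25, limma adjusted p = 0.0432), while its relative Socs2 was at −1.22 ± 0.41 and did not pass. The call of Cish ended with the 6 WT libraries fitted alone (limma adjusted p = 0.0600) and with rescaled values (limma adjusted p = 0.0661).

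Promoters were taken from RefSeq on GRCm38.p6, an earlier build than the mm39 coordinates of the deposited table, and matched by symbol for 61 of the 75 higher, 30 of the 44 lower and 11019 of the 16127 genes tested, each from 250 bases before to 50 after the start. The motif of STAT factors, TTCNNNGAA, reads the same on both strands. It occurred in 7 of 61 promoters of higher genes (11.5%, 95% Wilson interval 5.67% to 21.8%), in 3 of 30 of lower genes (10%, 3.46% to 25.6%) and in 7.26% of all 11019. Among higher genes these were Apcs, C8a, Fga, Fgb, Heg1, Socs3 and Steap4, and among lower genes A1bg, Cish and Hamp2. Both intervals hold the share of all genes. The motif of C/EBP factors, searched on both strands, is given in a pair of forms that can overlap. As TTNNGNAA it was in 41.0% of higher (29.5% to 53.5%), 53.3% of lower (36.1% to 69.8%) and 33.4% of all genes, and as TTGCNNAA in 19.7% of higher (11.6% to 31.3%), 26.7% of lower (14.2% to 44.4%) and 9.14% of all genes. The motif of NF-kB, GGG and CC with 5 bases between them, on both strands, was in 50.8% of higher (38.6% to 62.9%), 56.7% of lower (39.2% to 72.6%) and 65.0% of all genes. The TATA box, TATAAA on both strands, was in 19.7% of higher (11.6% to 31.3%), 20% of lower (9.51% to 37.3%) and 8.34% of all genes. For the second form of C/EBP and the TATA box the intervals of higher and of lower genes lie above the share of all genes, as does that of the first form of C/EBP for lower genes, and that of NF-kB for higher genes lies under it. In the 150 bases before the start alone, the second form of C/EBP was in 11.5% of higher (5.67% to 21.8%), 16.7% of lower (7.34% to 33.6%) and 4.66% of all genes. There the TATA box was in 6.56% (2.58% to 15.7%), 6.67% (1.85% to 21.3%) and 4.19%, so that its intervals held the share of all genes. In the same 150 bases the first form of C/EBP was in 26.7% of lower (14.2% to 44.4%) and 17.6% of all genes. NF-kB was there in 41.0% of higher (29.5% to 53.5%) and 48.7% of all genes. Both of these intervals held the share of all genes. The promoters of Fga (chr3:83025903-83026152, plus strand), Steap4 (chr5:7960222-7960471, plus strand), Socs3 (chr11:117969367-117969616, minus strand) and Hamp2 (chr7:30924182-30924431, minus strand) are shown because they belong to an acute phase protein, a surface enzyme, the feedback inhibitor and a gene that fell. Each runs 5′ to 3′ over the 250 bases before the start, with the STAT motif in capitals.
Fga: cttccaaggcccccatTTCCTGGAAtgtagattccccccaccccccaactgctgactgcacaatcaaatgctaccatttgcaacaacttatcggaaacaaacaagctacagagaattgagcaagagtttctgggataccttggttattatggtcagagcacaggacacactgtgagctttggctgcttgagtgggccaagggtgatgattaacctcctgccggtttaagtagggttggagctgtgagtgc
Steap4: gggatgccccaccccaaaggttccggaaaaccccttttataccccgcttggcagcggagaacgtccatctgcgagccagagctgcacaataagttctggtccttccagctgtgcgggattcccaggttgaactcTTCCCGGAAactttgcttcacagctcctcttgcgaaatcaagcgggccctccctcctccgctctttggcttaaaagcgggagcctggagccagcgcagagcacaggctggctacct
Socs3: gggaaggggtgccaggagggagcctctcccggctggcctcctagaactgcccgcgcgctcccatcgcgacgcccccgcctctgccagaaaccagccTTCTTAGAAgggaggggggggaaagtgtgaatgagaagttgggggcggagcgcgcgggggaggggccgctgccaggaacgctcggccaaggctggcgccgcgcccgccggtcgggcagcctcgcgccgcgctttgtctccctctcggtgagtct
Hamp2: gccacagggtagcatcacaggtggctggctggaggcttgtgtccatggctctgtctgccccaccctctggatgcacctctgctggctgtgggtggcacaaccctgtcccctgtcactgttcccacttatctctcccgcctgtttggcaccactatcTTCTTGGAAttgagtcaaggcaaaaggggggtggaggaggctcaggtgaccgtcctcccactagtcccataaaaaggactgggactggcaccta

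The ER folds the proteins that the liver secretes. Of 32 genes of ER stress and the unfolded protein response tested, 4 rose and 0 fell, against 0.465% and 0.273% of all genes tested. Of the 32, 26 were positive, and the median was 0.55. For 17 all tumour-bearing livers lay above all tumour-free livers, against 9.75% of all genes tested. The luminal chaperone Hspa5 was at 7217, 5552 and 8997 without and at 16554, 17111 and 14421 with a tumour (1.17 ± 0.22, limma adjusted p = 0.0294). Xbp1, the transcription factor activated by splicing under ER stress, went from 8682, 8248 and 8765 to 15524, 15906 and 19881 (0.99 ± 0.19, limma adjusted p = 0.0355). The chaperone-complex member Sdf2l1 went from 421, 403 and 1117 to 2206, 2322 and 3034 (2.12 ± 0.39), and Syvn1, a ubiquitin ligase that clears misfolded proteins, from 1209, 1161 and 1041 to 2521, 2787 and 1759 (1.03 ± 0.21, limma adjusted p = 0.0445). In all 4 genes the groups did not overlap, as in every called gene. Tmed3, of vesicle traffic between ER and Golgi, rose from 349, 206 and 381 to 802, 933 and 842 (1.51 ± 0.29). Genes of the branch that halts translation did not pass. Chac1 (3.69 ± 1.12), Trib3 (2.31 ± 1.19) and Asns (2.50 ± 0.75) had positive fold changes with wide errors, Atf4 was at 0.30 ± 0.20, and Ddit3, the gene of CHOP, was at −0.86 ± 0.66. Heat shock genes of cytosol and mitochondria had a median of −0.14 with 0 of 25 called by limma (1 higher and 1 lower at an unadjusted p under 0.05). The calls of Xbp1 and Syvn1 ended with the 6 WT libraries fitted alone (limma adjusted p = 0.0525 and 0.0606), and that of Syvn1 ended with values rescaled to the same total (limma adjusted p = 0.0610).

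The ER stress element, CCAAT and CCACG with 9 bases between them, searched on both strands, was found in the RefSeq promoters of 2 of 61 higher genes, Hspa5 and Syvn1 (3.28%, 95% Wilson interval 0.904% to 11.2%), in 0 of 30 lower genes and in 18 of all 11019 (0.163%). The promoters of Hspa5 (chr2:34771840-34772089, plus strand) and Syvn1 (chr19:6046326-6046575, plus strand) on GRCm38.p6 are printed as the 2 called genes found with the element, 250 bases each before the start, 5′ to 3′, with the element in capitals. A match describes letters, not binding.
Hspa5: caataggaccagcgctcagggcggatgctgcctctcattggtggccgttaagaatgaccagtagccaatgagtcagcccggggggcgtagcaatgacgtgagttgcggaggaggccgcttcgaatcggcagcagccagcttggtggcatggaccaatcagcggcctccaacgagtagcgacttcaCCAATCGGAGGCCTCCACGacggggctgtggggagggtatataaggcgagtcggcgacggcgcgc
Syvn1: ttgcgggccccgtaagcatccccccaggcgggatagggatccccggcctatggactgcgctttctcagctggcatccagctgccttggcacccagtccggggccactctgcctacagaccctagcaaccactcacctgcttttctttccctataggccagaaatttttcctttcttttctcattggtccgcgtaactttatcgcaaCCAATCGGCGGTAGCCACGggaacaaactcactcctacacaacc

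PPARα targets, many of them enzymes of fatty acid breakdown, made the largest group of decreases. Of 42 tested, 9 fell and 0 rose, 39 were negative, and the median was −0.88 against 0.00 over all genes. For 23 of the 42 every tumour-bearing liver lay under every tumour-free liver, against 8.27% of all genes tested. The acyl-CoA thioesterases, which release free fatty acids from coenzyme A, had 3 called genes side by side on chromosome 12 (84056264 to 84107176, mm39). Acot1, of the cytosol, went from 648, 890 and 725 to 25.1, 73.7 and 12.8 (−4.64 ± 0.60, limma adjusted p = 0.00408). Acot3, of peroxisomes, went from 8858, 11558 and 4877 to 249, 859 and 448 (−4.11 ± 0.45, limma adjusted p = 0.00192), and Acot4, also of peroxisomes, from 15099, 22115 and 10456 to 3579, 4224 and 5029 (−1.84 ± 0.29, limma adjusted p = 0.0134). Their neighbour Acot2, of mitochondria, had −1.63 ± 0.45 and did not pass (limma adjusted p = 0.153). Acot1 shares 19.2% of its 50-base words with other genes, mostly Acot2, and Acot3 shares 19.1%.

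Fatty acid omega-hydroxylases fell as well. Cyp4a10 went from 9815, 19053 and 8923 to 429, 1770 and 477 (−4.06 ± 0.43, limma adjusted p = 0.00192), and its neighbour on chromosome 4, Cyp4a14, from 17374, 38179 and 17340 to 1148, 7539 and 1834 (−3.17 ± 0.55, limma adjusted p = 0.0208). Of the words of Cyp4a10 29.8% occur in other genes, mostly Cyp4a32. In both genes replicate 2 was the highest of its group with and without a tumour, although nothing in the labels pairs the mice. Aldh3a2, which oxidises fatty aldehydes, fell from 13692, 14868 and 8485 to 2253, 4274 and 2448 (−2.06 ± 0.33, limma adjusted p = 0.0137). Vnn1, the pantetheinase that recycles a precursor of coenzyme A, fell from 2900, 3064 and 1638 to 497, 987 and 670 (−1.82 ± 0.38). For these 4 enzymes WT_tumor replicate 2 was the highest tumour-bearing liver. Among called genes off this list, Crat, the carnitine acetyltransferase, went from 863, 847 and 843 to 185, 455 and 152 (−1.86 ± 0.35), and Vldlr, a receptor of triglyceride-rich lipoproteins, from 1606, 1593 and 861 to 168, 442 and 589 (−1.88 ± 0.40). With rescaled values the calls of Vnn1, Crat and Vldlr ended (limma adjusted p = 0.0650, 0.0624 and 0.0650), and that of Vldlr also with the 6 WT libraries fitted alone (limma adjusted p = 0.0729). Ehhadh (−1.86 ± 0.41, limma adjusted p = 0.0584) and Acaa1b (−1.97 ± 0.43, limma adjusted p = 0.0595), enzymes of peroxisomal oxidation, lay just outside the threshold. Ppara itself was at 6598, 5552 and 3239 without and at 3193, 2471 and 3925 with a tumour (−0.65 ± 0.33, limma adjusted p = 0.622), and Rxra was at 0.02 ± 0.24.

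The direct repeat bound by PPAR and RXR, AGGTCA repeated after a spacer of 1 base, with up to 2 mismatches outside the spacer, was found on either strand in 1 of 30 promoters of lower genes, that of Acot4 (3.33%, 95% Wilson interval 0.591% to 16.7%), in 1 of 61 of higher genes, that of Saa1, and in 3.16% of all 11019. The Acot4 promoter (chr12:84038129-84038378, GRCm38.p6, plus strand) is shown because it belongs to the group that fell and holds the repeat on the opposite strand directly before the start, in capitals.
Acot4: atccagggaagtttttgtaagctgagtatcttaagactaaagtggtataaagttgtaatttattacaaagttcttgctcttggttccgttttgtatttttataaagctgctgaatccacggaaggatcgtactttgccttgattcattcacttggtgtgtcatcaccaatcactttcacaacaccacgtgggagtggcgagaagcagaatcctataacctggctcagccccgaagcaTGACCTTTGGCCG

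Fewer calls were made among other genes of lipid metabolism. Of 28 genes of fatty acid oxidation and ketogenesis, 2 fell and 0 rose, 22 were negative, and the median was −0.42. The acyl-CoA synthetase Acsl1 fell from 24957, 25512 and 18556 to 9919, 11174 and 10471 (−1.12 ± 0.20, limma adjusted p = 0.0214), and Decr1, which handles unsaturated fatty acids in mitochondria, from 4980, 6341 and 3880 to 1905, 2206 and 2061 (−1.27 ± 0.22, limma adjusted p = 0.0208). The tumour-bearing mice were close to each other for both. Cpt1a, which admits long fatty acids to mitochondria (−0.40 ± 0.36), did not pass. Of 36 peroxisome genes 1 fell, the fatty acid transporter Abcd3, from 22464, 22753 and 16332 to 7196, 8691 and 6819 (−1.43 ± 0.22, limma adjusted p = 0.0126), and the median was −0.23. Lipogenesis had 0 of 29 called by limma (0 higher and 7 lower at an unadjusted p under 0.05), 24 negative and a median of −0.53, which was −0.15 without WT_no_tumor replicate 1, −1.03 without WT_no_tumor replicate 2 and −0.27 without WT_no_tumor replicate 3. WT_no_tumor replicate 2 was low in these genes: Fasn, the fatty acid synthase, was at 148513, 17861 and 156046 without and at 106698, 36916 and 81459 with a tumour, so its groups overlapped (−0.12 ± 0.69). Malic enzyme (Me1), which supplies reducing power for lipogenesis, was at 60110, 19270 and 60930 without and at 9838, 16315 and 9384 with a tumour (−1.85 ± 0.41, limma adjusted p = 0.0625). Lipid droplet and lipolysis genes had 0 of 24 called by limma (1 higher and 10 lower at an unadjusted p under 0.05) with a median of −0.47, among them the lipase Ces1d (−0.94 ± 0.21, limma adjusted p = 0.0608). Hepatic lipase (Lipc), of the lipoprotein list, fell from 4573, 3669 and 4106 to 1905, 2004 and 1163 (−1.32 ± 0.25), while that list had a median of −0.03. Genes of cholesterol synthesis had a median of 0.34 and bile acid genes of −0.14, with 0 called by limma in either (2 higher and 0 lower, and 0 higher and 5 lower, at an unadjusted p under 0.05). Cyp7a1, which starts the classical route to bile acids, was at −0.37 ± 0.48.

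**Figure D3:**
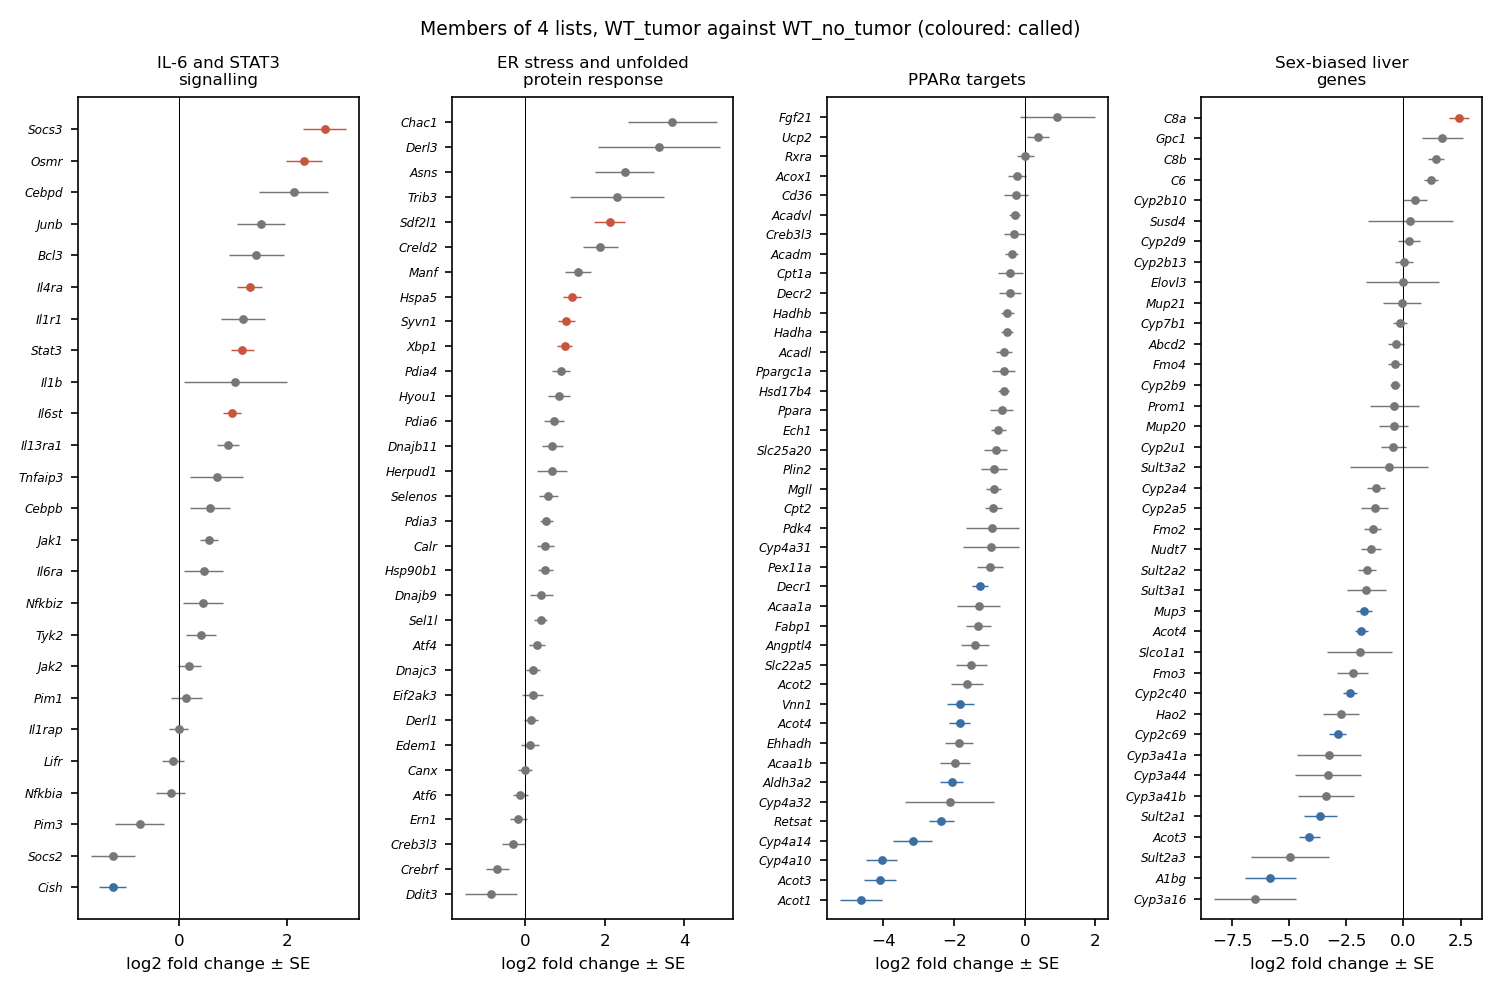
Log2 fold change ± SE of tested members of 4 gene lists (WT_tumor against WT_no_tumor, limma on 3 and 3 mice, 1 PPARα target left out), with genes called higher in red, called lower in blue and not called in grey. IL-6 and ER members lie mostly right of 0 (medians 0.57 and 0.55), and PPARα and sex-biased members mostly left (−0.88 and −1.26).

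Many P450 and sulfotransferase genes differ in level between male and female liver under growth hormone. Of 39 such genes tested, 7 fell and 1 rose, 31 were negative and the median was −1.26. The cytochrome P450 genes Cyp2c40 and Cyp2c69, neighbours on chromosome 19, went from 18727, 15432 and 19686 to 3422, 5741 and 2215 (−2.34 ± 0.31, limma adjusted p = 0.0046) and from 14435, 19755 and 16422 to 2629, 2991 and 1483 (−2.88 ± 0.37, limma adjusted p = 0.00392). They share 60.3% and 54.3% of their 50-base words with each other or other genes, so the reads of the pair cannot be told apart with certainty. A1bg, a plasma glycoprotein gene higher in female liver, fell from 4527, 4529 and 1850 to 77.8, 406 and 5.53 (−5.82 ± 1.12, limma adjusted p = 0.0328), the largest decrease among called genes, and the 3 tumour-bearing mice differed widely. Sult2a1, a sulfotransferase of steroids and bile acids, fell from 9194, 18839 and 5685 to 1869, 299 and 924 (−3.63 ± 0.73, limma adjusted p = 0.0384), and 33.2% of its words occur in other genes, mostly Sult2a2. Its relative Sult2a8, outside the list, fell from 14484, 13477 and 11540 to 5813, 1836 and 3256 (−2.01 ± 0.38, limma adjusted p = 0.0294). Members that did not pass included Cyp3a41a (164819, 75737 and 89621 without, 46350, 580 and 45934 with a tumour), Cyp3a44 (−3.29 ± 1.43) and Cyp3a16 (−6.48 ± 1.80), female-biased P450 genes in which WT_tumor replicate 2 was the lowest liver. C8a was the member that rose. The female-biased Cyp2b9 (−0.36 ± 0.22) and Cyp2b13 (0.01 ± 0.40) did not pass.

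Other growth hormone readouts had few calls. Of 18 major urinary protein genes, secreted carriers of pheromones, all 18 fold changes were negative with a median of −1.74, but 1 was called, Mup3, from 36895, 24929 and 26936 to 13918, 10201 and 4850 (−1.72 ± 0.34, limma adjusted p = 0.0367), a call that ended with the 6 WT libraries fitted alone (limma adjusted p = 0.0501). Mup genes share up to 100% of their 50-base words, Mup3 13.3%, so their counts are not independent. The level of the Mup list per mouse, as the mean of log2(value + 1) over members less the WT_no_tumor mean, was 0.82, −0.93 and 0.11 without and −0.28, −2.46 and −3.17 with a tumour, so the groups overlapped. In the KO mice the median of the list was −1.46. Onecut1, a hepatocyte transcription factor that growth hormone raises, went from 3752, 3708 and 2082 to 668, 756 and 584 (−2.20 ± 0.45, limma adjusted p = 0.0405), and shares 52.3% of its words with the overlapping gene model Gm20649 on the same strand, which fell too. The call of Onecut1 ended with rescaled values (limma adjusted p = 0.0623). The growth hormone receptor gene Ghr was at −0.43 ± 0.29 and Igf1 at 56173, 60148 and 56812 without and 52412, 27439 and 33262 with a tumour (−0.67 ± 0.31, limma adjusted p = 0.55). The growth hormone and IGF list as a whole had a median of −0.23, with Igfbp1 higher and Cish and Onecut1 lower.

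Steroid, drug and retinoid enzymes showed further decreases. Cyp17a1, which makes androgen precursors, fell from 1947, 1720 and 918 to 303, 220 and 184 (−2.65 ± 0.31, limma adjusted p = 0.00192). Cyp2a22 fell from 1274, 1464 and 855 to 63.1, 189 and 300 (−2.92 ± 0.60, limma adjusted p = 0.0438), a call that ended with values rescaled to the same total (limma adjusted p = 0.0589), and 20.2% of its words occur in other genes, mostly Cyp2a12. Cyp1, Cyp2 and Cyp3 genes together had 3 of 48 lower, 34 negative and a median of −0.24, and conjugating enzymes had 0 of 45 called by limma (2 higher and 8 lower at an unadjusted p under 0.05) with a median of −0.23. Retsat, which saturates retinol and is a PPARα target, fell from 5304, 4748 and 3291 to 629, 1561 and 613 (−2.37 ± 0.35, limma adjusted p = 0.00982). Decreases that belonged to no list included Smad9, a transducer of bone morphogenetic proteins (648, 1321 and 550 without, 131, 255 and 132 with a tumour; −2.24 ± 0.41), the growth arrest gene Gas1 (709, 715 and 743 without, 141, 243 and 94.1 with a tumour; −2.28 ± 0.39), and the leucine-rich repeat gene Lrit1 (−2.43 ± 0.38).

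Other transport and signalling genes, of which all but Slc1a4 and Fst were chosen after their values were seen, were called in both directions. Among solute carriers, the citrate and succinate transporter Slc13a3 rose from 283, 93.6 and 169 to 1868, 645 and 1558 (2.89 ± 0.48, limma adjusted p = 0.0174), and Slc41a2, of a family of magnesium transporters, from 928, 1463 and 3291 to 10261, 9059 and 10560 (2.59 ± 0.38). Slc1a4, a carrier of alanine and serine, rose from 262, 254 and 339 to 1467, 912 and 1050 (1.98 ± 0.42, limma adjusted p = 0.0483), a call that ended with values rescaled to the same total (limma adjusted p = 0.0624). The aromatic amino acid transporter Slc16a10 fell from 6289, 5124 and 4239 to 3049, 2239 and 2369 (−1.03 ± 0.21). Of secreted regulators, follistatin (Fst), which binds activins, rose from 334, 408 and 465 to 2373, 940 and 1438 (1.88 ± 0.35, limma adjusted p = 0.0267), and Tnfrsf11b, the decoy receptor osteoprotegerin, from 212, 284 and 193 to 565, 814 and 1154 (1.83 ± 0.36). Mug2, a protease inhibitor of rodent plasma, rose from 17276, 17513 and 21802 to 61113, 52270 and 62639 (1.64 ± 0.25, limma adjusted p = 0.0106), although 50.5% of its words occur in other genes. Sar1b, which coats the vesicles that carry lipoproteins out of the ER, fell from 4214, 4641 and 4238 to 2235, 2765 and 2141 (−0.88 ± 0.18), and the flavin monooxygenase Fmo1 from 7346, 6590 and 6221 to 3616, 3239 and 3456 (−0.97 ± 0.18). With rescaled values the calls of Slc16a10, Sar1b and Fmo1 ended (limma adjusted p = 0.0551, 0.0990 and 0.0598), and those of Slc16a10 and Sar1b also with the 6 WT libraries fitted alone (limma adjusted p = 0.0574 and 0.0616).

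Iron genes split. Of 25 tested, 4 rose and 1 fell, against 0.465% and 0.273% of all genes tested. The median was 0.27, and 0.48 without WT_no_tumor replicate 3. Hemopexin (Hpx), which carries free haem to the liver, rose from 19032, 24983 and 24751 to 96086, 88117 and 76708 (1.93 ± 0.38, limma adjusted p = 0.0367). Ceruloplasmin (Cp), the copper-bearing ferroxidase, rose from 36888, 36103 and 39891 to 83114, 79193 and 108046 (1.25 ± 0.25, limma adjusted p = 0.0367), a call that ended with the 6 WT libraries fitted alone (limma adjusted p = 0.0616). Fgl1 and Steap4, already counted above in other lists, were the other 2. Hamp2, a paralogue of the iron hormone hepcidin, fell from 2975, 1833 and 2104 to 74.2, 613 and 32.1 (−4.29 ± 0.71, limma adjusted p = 0.0173). Hepcidin itself (Hamp), which IL-6 is known to raise, was at 4430, 4696 and 589 without and at 31.0, 5890 and 64.2 with a tumour, so that WT_tumor replicate 2 was the highest of all 6 and the other tumour-bearing livers the lowest (−3.32 ± 1.50, limma adjusted p = 0.54). Hamp and Hamp2 share 16.6% and 11.2% of their 50-base words with another gene. Bmp6, an endothelial inducer of hepcidin, was at 89.2, 73.6 and 92.8 without and 31.0, 66.2 and 17.7 with a tumour (−1.32 ± 0.57), and did not pass.

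Some genes of non-parenchymal cells rose. In whole liver, more cells of a type and more RNA per cell cannot be told apart. Of 42 genes of stellate cells and matrix, 4 rose and 0 fell, against 0.465% and 0.273% of all genes tested. Of the 42, 35 were positive, and the median was 0.77. Among the 42 were 2 genes that passed the filter through the tumour-bearing livers alone. The fibrillar collagen Col3a1 rose from 1681, 1297 and 1072 to 4350, 3154 and 3878 (1.50 ± 0.25, limma adjusted p = 0.0166), its neighbour on chromosome 1, Col5a2, from 125, 55.7 and 83.3 to 595, 332 and 466 (2.42 ± 0.48), the proteoglycan decorin (Dcn) from 2845, 2764 and 3693 to 6358, 7442 and 6882 (1.16 ± 0.20), and the platelet-derived growth factor receptor Pdgfra from 341, 331 and 354 to 834, 723 and 1020 (1.31 ± 0.22). Col1a1, the main collagen of scars, was at 182, 78.8 and 130 without and 161, 355 and 151 with a tumour (0.73 ± 0.72), and Acta2, the marker of activated stellate cells, at 1.01 ± 0.91, so neither passed. The summed level of the stellate markers Lrat, Reln and Des was 5973 to 7893 without and 6307 to 10532 with a tumour, with overlap. Called genes off the list that act in matrix were Emilin1 of elastic fibres (1.83 ± 0.35), the collagen receptor Ddr2 (1.32 ± 0.25), Tgfbi (1.44 ± 0.28) and Ccdc80 (1.10 ± 0.22). Lysosomal proteases Ctsl (1.29 ± 0.27) and Lgmn (1.11 ± 0.23) rose too, although the call of Ctsl ended with rescaled values (limma adjusted p = 0.0536).

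Of 32 genes of endothelium and leukocyte adhesion, 2 rose, Selp and the fenestral protein Plvap (682, 334 and 695 without, 1379, 1486 and 1394 with a tumour; 1.39 ± 0.28, limma adjusted p = 0.0397), with a median of 0.40, which was 0.23 without WT_no_tumor replicate 2. The call of Plvap ended with the 6 WT libraries fitted alone (limma adjusted p = 0.0501). E-selectin (Sele) was at 0, 0 and 0.947 without and 20.2, 85.7 and 26.6 with a tumour and did not pass (limma adjusted p = 0.144). The summed level of the sinusoidal markers Stab2, Clec4g and Oit3 was 1705 to 2495 without and 2870 to 3729 with a tumour, without overlap, and their part in the level of Plvap was not tested. Kupffer cell and macrophage genes had 0 of 27 called by limma (3 higher and 0 lower at an unadjusted p under 0.05) with a median of 0.49, which was 0.76 without WT_no_tumor replicate 3. The summed Kupffer markers Clec4f, Timd4 and Vsig4 were at 1491 to 2989 without and 2431 to 3772 with a tumour, with overlap. The chemokine receptor Ccr2, a marker of monocytes that enter tissue, rose from 103, 153 and 242 to 475, 622 and 526 (1.78 ± 0.37, limma adjusted p = 0.0454), the monocyte member called of 18. Il33, an alarm cytokine of stressed cells, rose from 105, 78.8 and 89.9 to 572, 498 and 434 (2.45 ± 0.43, limma adjusted p = 0.0208).

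A gene could pass the filter through the 3 tumour-bearing livers alone, as 71 of the 16127 genes did, Cpxm1 among them. Counts over members that passed are therefore no support. Such genes were 2 of the stellate and matrix list, 1 of the endothelium list and 1 of the T and NK cell list. Of 27 neutrophil genes 14 were tested, 2 of them through the tumour-bearing livers alone, and 1, Lcn2, was called. Prtn3, a granule protease of granulocyte precursors, was at 7.90, 0 and 3.79 without and 644, 346 and 545 with a tumour and did not pass (7.15 ± 1.67, limma adjusted p = 0.0793), while Mpo and Elane, proteases and peroxidase of the same cells, were at most 22.3 in any of the 6 libraries. The neutrophil markers S100a8, S100a9, Ly6g, Retnlg and Cxcr2 summed to 10.2 to 58.0 without and 179 to 378 with a tumour. The summed neutrophil markers were thus above every tumour-free liver in each tumour-bearing liver. Alas2, the haem synthesis enzyme of red cell precursors, rose from 249, 130 and 227 to 551, 670 and 564 (1.60 ± 0.33, limma adjusted p = 0.0425). The part of these cells in the higher level of Lcn2, Selp or Ccr2 was not tested.

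Lymphocyte genes were not called. Of 19 genes of T and NK cells 0 passed by limma (1 higher and 0 lower at an unadjusted p under 0.05), with a median of 0.18 that turned to −0.02 with quantile normalization and to −0.14 without WT_tumor replicate 2. Cd8a, the co-receptor of cytotoxic T cells, was at 0, 42.0 and 26.5 without and 43.2, 49.0 and 81.9 with a tumour (2.42 ± 1.21, limma adjusted p = 0.615). B and plasma cell genes had 0 of 13 called by limma (1 higher and 0 lower at an unadjusted p under 0.05) with a median of 1.07, which was −0.06 without WT_tumor replicate 2, and the heavy chain gene Ighm was at 1650 in that liver against 68.3 to 132 in the other 5. Interferon-stimulated genes (47 tested, median 0.16) and antigen presentation genes (29 tested, median 0.41, 0.22 without WT_tumor replicate 2) had 0 called by limma, each with 1 higher and 0 lower at an unadjusted p under 0.05. The mammary tumour epithelium list had 0 of 16 called by limma (3 higher and 0 lower at an unadjusted p under 0.05). Its median was 0.09, and its log2 fold changes ran from −0.59 to 3.05. Krt14 and Epcam, markers of this epithelium, did not differ detectably. Krt14 was at 45.2, 46.3 and 36.9 without and 40.3, 41.0 and 55.3 with a tumour. Epcam was at 76.8, 104 and 55.8 without and 41.8, 109 and 73.1 with a tumour. The summed level of Krt5, Krt14, Epcam and Trp63 was 121 to 172 without and 104 to 174 with a tumour. The series holds no library of Py8119 cells, so their level of these markers is not known here. Whether tumour cells were in the livers was therefore not tested.

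**Figure D4:**
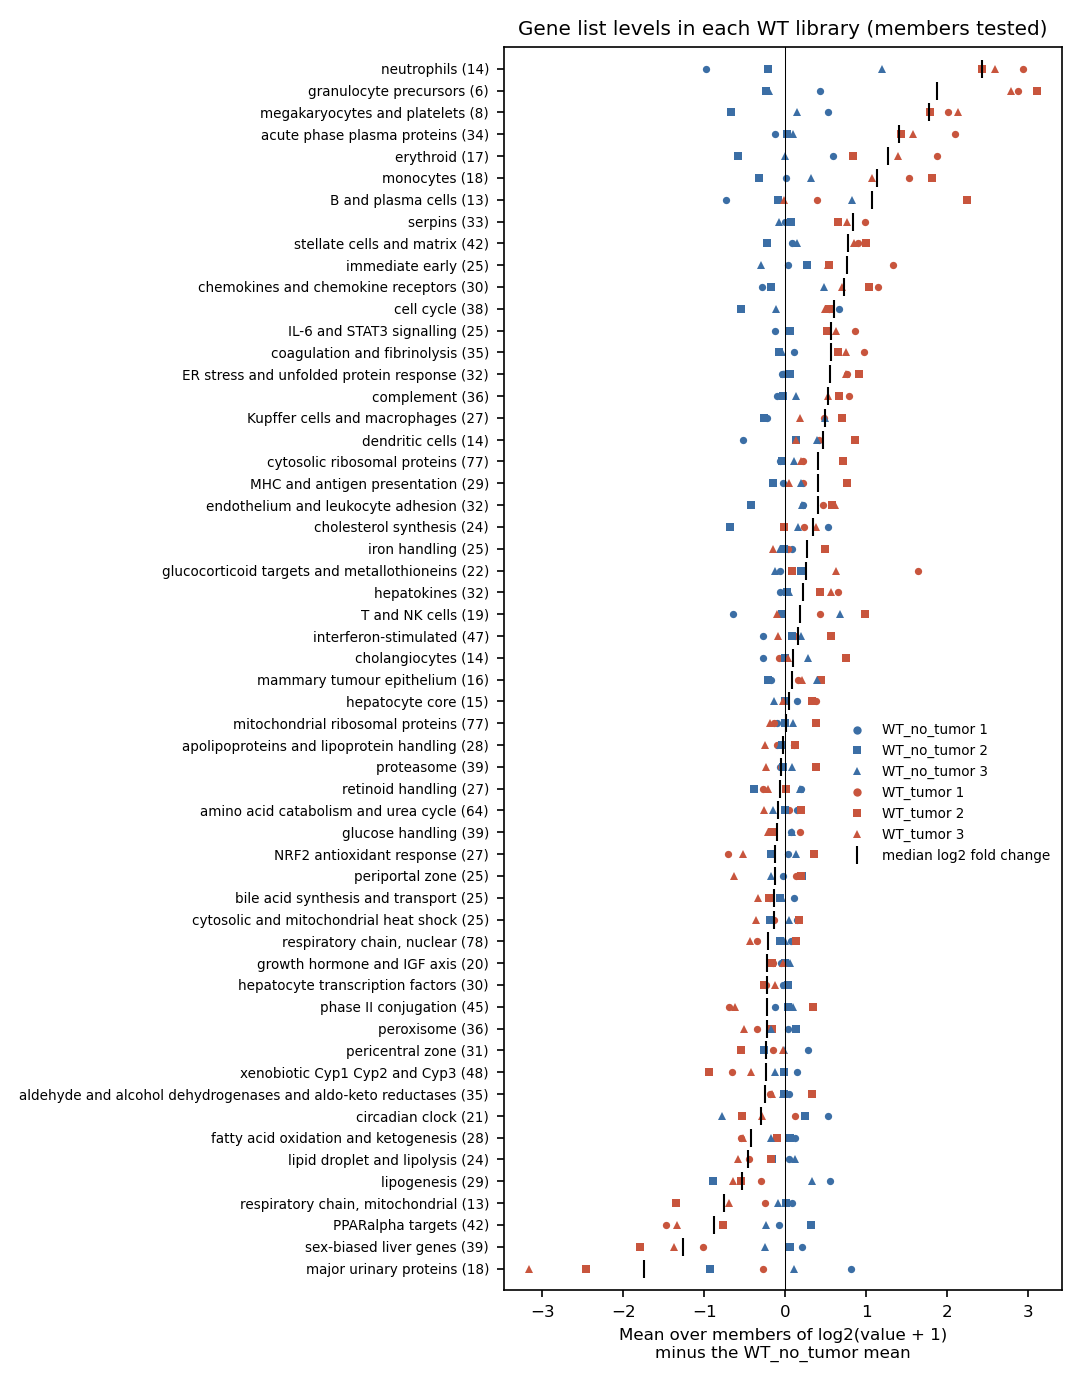
Level of each gene list in each WT library, as the mean over tested members of log2(value + 1) less the mean of the 3 WT_no_tumor livers (horizontal axis), with lists ordered by median log2 fold change (black bar) and tested members in brackets. Acute phase, coagulation, ER stress and matrix lists have red tumour-bearing livers right of all blue tumour-free livers, and PPARα and sex-biased lists have them left.

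Many central liver functions showed no called gene. Amino acid catabolism and the urea cycle (64 genes, median −0.09), glucose handling (39 genes, −0.10), the proteasome (39 genes, −0.05), mitochondrial ribosomal proteins (77 genes, 0.00) and the nuclear genes of the respiratory chain (78 genes, −0.21) had 0 genes called by limma at an adjusted p under 0.05. At an unadjusted p under 0.05 they had 6 higher and 4 lower, 1 and 3, 0 and 0, 0 and 1, and 0 and 14 genes, in the order given. Hnf4a, the master regulator of hepatocytes, was at 0.06 ± 0.23 and Cebpa at −0.67 ± 0.28 (limma adjusted p = 0.458). Albumin (Alb) was at 2300000, 2220000 and 2070000 without and at 2930000, 2850000 and 3350000 with a tumour, without overlap, and did not pass (0.47 ± 1.18, limma adjusted p = 0.983). This SE, which limma moderates over all genes, is wide against the spread of Alb within the WT groups. Mitochondrially encoded genes were all 13 negative with a median of −0.75, which was −0.45 without WT_tumor replicate 2, and 0 were called by limma (0 higher and 5 lower at an unadjusted p under 0.05). Clock genes varied between mice within a group: Dbp, a clock output gene, was at 781, 736 and 2.84 without and 95.1, 67.0 and 84.1 with a tumour, and Arntl (Bmal1) at 62.1, 46.3 and 809 and at 354, 840 and 274. The clock list had a median of −0.30 that was 0.06 without WT_no_tumor replicate 1. WT_no_tumor replicate 3 stood apart from its group in both genes. Of 21 clock genes 0 were called by limma (0 higher and 3 lower at an unadjusted p under 0.05).

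The tumour-bearing mice differed in the size of the response. WT_tumor replicate 2 was the nearest of the 3 to the tumour-free mean for 46 of 75 higher and 26 of 44 lower genes. The median difference from the tumour-free mean over higher genes was 1.84, 1.63 and 1.74 in replicates 1 to 3, and over lower genes −1.94, −1.50 and −1.91. The acute phase list was at 2.10, 1.42 and 1.57 in these mice, and the PPARα list at −1.48, −0.77 and −1.34, whereas the sex-biased list was lowest in replicate 2 (−1.02, −1.80 and −1.37).

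Of the 119 called genes, 20 lay within 200 kb of another, in 9 groups, and each group moved in 1 direction. Besides fibrinogen, thioesterases, orosomucoids, Cyp4a, Cyp2c and collagen genes, these were Tmem176a and Tmem176b on chromosome 6, both higher (1.49 ± 0.26 and 1.20 ± 0.21), A1cf, a partner of RNA editing of apolipoprotein B, with the adjacent transcript 9130016M20Rik on chromosome 19, both lower (−0.93 ± 0.18 and −1.20 ± 0.25), and Onecut1 with Gm20649. With rescaled values the calls of A1cf and 9130016M20Rik ended (limma adjusted p = 0.110 and 0.0700), and that of A1cf also with the 6 WT libraries fitted alone (limma adjusted p = 0.0574). The number was 20 within 50 kb and 28 within 1 Mb (1000 kb). Overlapping or near-identical members of such groups are not independent, and no source used here says whether counting used the strand.

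In livers without Mtdh the genes called in WT had smaller fold changes, mostly of the same sign. Of the 75 genes higher in WT, 70 had a positive tumour effect in KO mice, against 45.9% of all genes tested, and of the 44 lower genes 41 had a negative effect, against 54.0%. The WT and KO comparisons share no mice. Median fold changes in KO were 0.65 and −0.65. The genes were chosen by their WT values, which favours larger values in WT, so the smaller size in KO is a description. In KO liver 0 of 16127 genes were called by limma (0%, smallest adjusted p 0.171). At an unadjusted p under 0.05 in limma there were 2116 genes in KO, against 1433 in WT. The difference between the WT and KO effects, tested for every gene as an interaction, was called for 0 genes (0%; 760 at an unadjusted p under 0.05), for 1 with library weights (Col3a1) and for 1 without WT_tumor replicate 2 (Hamp2, named after its values were seen, as Col3a1), and the smallest adjusted p among the 119 genes was 0.715. Saa1 was at 54.8, 56.4 and 439 in KO_no_tumor and at 19.7, 116 and 205 in KO_tumor livers (−0.50 ± 1.03), and Cpxm1 at −0.44 ± 0.98. Cyp4a10 had −2.43 ± 0.43 in KO, and Dcn had 1.18 ± 0.20 in KO against 1.16 ± 0.20 in WT.

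**Figure D5:**
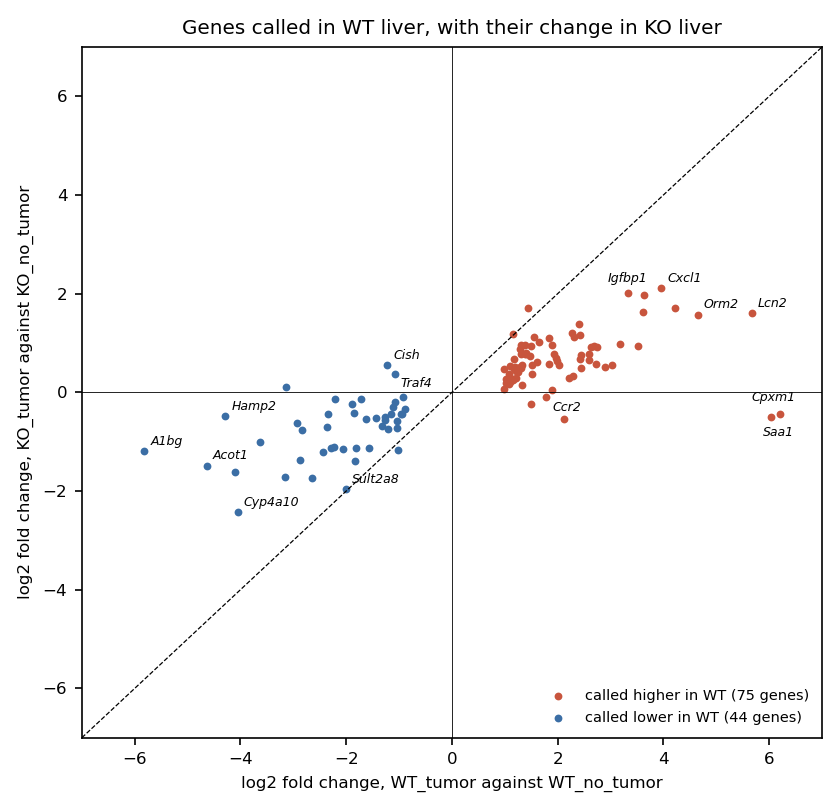
Log2 fold change of the 119 genes called in WT liver (horizontal axis, WT_tumor against WT_no_tumor) and in KO liver (vertical axis, KO_tumor against KO_no_tumor), with equality dashed. Most points share the sign of their WT change and lie nearer to 0 in KO, where medians are 0.65 and −0.65, and Saa1 and Cpxm1 lie at the far right near 0 in KO.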

How the data were processed

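RNA-seq libraries of 12 livers, 3 per group, were compared, and groups came from the labels' genotype and treatment. The deposited values are a normalized signal per gene, made by the authors with DESeq2 per the submitters' processing notes, which also name Partek, STAR 2.7.8a and build mm39. The counting program, annotation and use of strand are not stated in any source used here. Values of low genes were whole multiples of 1 read (within 0.01 reads) in 78.0% to 84.9% of cases per library, so whole reads were not recovered and no count model was used. Estimated depth was 12700000 to 43000000 reads over all 12 libraries.

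The test took genes that reached 10 in 3 or more of the 6 WT libraries (16127 of 22557) and used limma 3.58.1 in R 4.3.3 on log2(value + 1). A single fit held all 12 libraries, each group with its own mean, and eBayes with a trend, two-sided, with Benjamini-Hochberg adjustment over all genes tested and a threshold of 0.05. The interaction compared the tumour effect in WT with that in KO. An exact permutation test of 3 against 3 cannot go below 0.1 and was not used. Lists, motifs and neighbouring genes were described by counts, medians and 95% Wilson intervals, which cover counting error only, in Python 3.11.15 with pandas 2.3.3, numpy 2.4.6, scipy 1.17.1 and matplotlib 3.10.9. Read sharing is the share of 50-base words of a gene's transcripts that occur in another gene's transcripts.

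The genes named were the 12 largest increases and 12 largest decreases among the calls whose average over the 6 WT libraries was 50 or more and whose groups did not overlap (unnamed gene models left out), up to 6 called members of each list by smallest p, the 2 members of smallest p in some lists without calls, and a set of genes named whatever their values. Other genes named were chosen after their values were seen. Members and lists were chosen with earlier results of these data known. The fit was tested on simulated data with normal noise of the spread seen here. Of 50 genes changed by 1 on the log2 scale it called 7. Of 50 changed by 2, 3 and 4 it called 27, 32 and 37. Of 15927 unchanged genes it called 7. A gene that was not called may therefore have changed. Alternatives were another pseudocount, filter, scaling, robust or weighted fits, a replicate block, the 6 WT libraries alone, and leaving out each library. The values of some genes are not reported here.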

Additional observations from a re-analysis of the deposited data

Results flagged for a closer look

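For 3 genes called in WT liver, all 3 tumour-bearing livers lay on one side of the tumour-free mean of the normalized values in WT mice and all 3 on the other side in Mtdh KO mice. Cish, the inhibitor of growth hormone signalling, was at 719, 489 and 509 in KO_no_tumor and at 838, 734 and 905 in KO_tumor livers, so that it was higher with a tumour there without overlap. Its tumour effect was −1.22 ± 0.25 (SE) in WT and 0.55 ± 0.25 in KO, a difference of −1.77 ± 0.35 on the log2 scale (limma adjusted p = 0.715). Its call in WT ended with the 6 WT libraries fitted alone (limma adjusted p = 0.0600) and with rescaled values (limma adjusted p = 0.0661). Traf4, an adaptor of receptor signalling, was at 584, 539 and 569 without and 277, 307 and 220 with a tumour in WT, and at 588, 615 and 534 and at 947, 682 and 642 in KO, where the groups did not overlap either. Its effects were −1.08 ± 0.23 and 0.37 ± 0.23, a difference of −1.45 ± 0.32 (limma adjusted p = 0.809). Its call in WT, too, ended with the 6 WT libraries fitted alone (limma adjusted p = 0.0716) and with rescaled values (limma adjusted p = 0.107). Ccr2, the monocyte chemokine receptor, was at 171, 138 and 278 in KO_no_tumor and at 182, 156 and 192 in KO_tumor livers, with overlap, and on the log2 scale KO_tumor replicate 3 lay above the KO_no_tumor mean. Its effects were 1.78 ± 0.37 and −0.09 ± 0.37, a difference of 1.86 ± 0.52 (limma adjusted p = 0.847). None of the 3 differences passed the test over all genes.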

How the results depend on the processing

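The counts of 75 higher and 44 lower genes became 93 and 55 with a pseudocount of 10, 81 and 46 without a filter, 82 and 38 with robust eBayes, 116 and 49 with quantile normalization, 79 and 25 after scaling to equal library totals, and 333 and 246 with library weights. Leaving out single libraries gave 5 to 134 higher and 6 to 80 lower genes, and the cause was not tested. Without both KO libraries that stood apart the counts were 139 and 72, and with protein-coding genes alone 89 and 55, settings chosen after seeing the data. The interaction count was 0, with 1 gene under library weights and 0 to 1 when single libraries were left out. Nothing in the labels pairs mice by replicate number, and whether same-numbered mice shared a batch is not stated. Deviations of same-numbered WT libraries correlated at 0.03, −0.00 and 0.00 across genes. The replicate block gave 52 higher and 35 lower genes, 80 of the 119 among them, and the 6 WT libraries alone gave 109 and 46, or 131 and 73 with the block. Of 67 called genes named by the rule, 67 remained with a pseudocount of 10, 62 with rescaled values, 59 with the 6 WT libraries alone and 52 with the block, and 0 changed sign. Of 21 lists with a median beyond 0.5, 1 changed sign, that of B and plasma cells without WT_tumor replicate 2.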

Other observations

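Immediate early genes, which respond to stimulation within minutes, had 24 of 25 positive fold changes with a median of 0.76 against 0.00 over all genes, and 0 were called by limma (5 higher and 0 lower at an unadjusted p under 0.05). Btg2, an antiproliferative gene of this list, was at 217, 188 and 165 without and at 3170, 637 and 334 with a tumour (2.21 ± 0.67, limma adjusted p = 0.211), and Junb, a subunit of AP-1, at 239, 291 and 193 and at 1470, 601 and 359 (1.52 ± 0.45, limma adjusted p = 0.201). WT_tumor replicate 1 was the highest liver in both. In KO the median of the list was 0.49.

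Genes of cytosolic ribosomal proteins had 68 of 77 positive fold changes with a median of 0.41 in WT and of 0.96 in KO, and 0 were called in WT by limma (9 higher and 0 lower at an unadjusted p under 0.05). Rps6 was at 1049, 727 and 817 without and at 1186, 2114 and 1373 with a tumour (0.82 ± 0.28, limma adjusted p = 0.295), although 43.8% of its 50-base words occur in other genes. Cell cycle genes had a median of 0.60 in WT and of −0.49 in KO, with 0 of 38 called in WT by limma (2 higher and 1 lower at an unadjusted p under 0.05). Cyclin D1 (Ccnd1) was at 9291, 5823 and 8492 without and at 3139, 4585 and 2943 with a tumour (−1.15 ± 0.36, limma adjusted p = 0.235), opposite in sign to the median of its list. The differences between the WT and KO medians were not tested.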
